A study of Homo sapiens with 8 samples.

Results

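The promoters of 227 protein-coding genes carried an ATAC-seq peak in both EZH2 WT libraries and in none of the 4 libraries of the EZH2 gain-of-function (GOF) mutants. They were chosen by the peak calls themselves, among 19111 protein-coding genes on chromosomes 1 to 22: a called peak within 1 kb of any transcription start site (TSS) in both WT libraries, and no peak within 1 kb of any TSS in the 2 Y641F and the 2 A677G libraries. A promoter with such a peak is called open below and one without it closed, which means that no peak was called and not that no signal was present. The 227 genes were 1.19% of all genes examined and 1.64% of the 13867 genes that were open in both WT libraries. Since WT and GOF peaks set the membership, all WT and GOF values of these genes are descriptions, and only the libraries of the loss-of-function (LOF) mutant, H689A/F667I, were not used for the choice.

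ATAC-seq cuts accessible DNA with the Tn5 transposase and was performed on HEK293T cells, a human embryonic kidney line. The 4 stable lines were made by lentiviral infection with a construct for EZH2 carrying H689A/F667I, A677G, Y641F or no mutation (WT), so that the WT line also received an EZH2 construct, and each line gave 2 libraries described as biological replicates. The parental cells were described as free of EZH2 mutations. The infected cells were selected with blasticidin, and the study's methods call the resulting populations monoclonal. With 1 line per allele, the allele and the line cannot be told apart. EZH2 is the catalytic subunit of Polycomb repressive complex 2 (PRC2), which methylates lysine 27 of histone H3. Trimethylated H3K27 marks silent promoters, above all CpG-rich promoters of genes for development and cell identity, whereas promoters of housekeeping genes are usually wide open and free of the mark.

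Peaks were called by the authors in each library on its own, and read depth is unknown. The WT lists held 62528 to 64936 peaks, the GOF lists 26365 to 46372 and the H689A/F667I lists 47853 to 48769, and in every library the lowest −log10 q was just above 1. The GOF lists were thus the shortest, and the genes were recounted with equal peak numbers as described further on. Of the markers expected in HEK293T cells, VIM, KRT8, NEFM, NEFL, PAX2, LHX1 and CDH2 were open in all 8 libraries, and KRT18 was closed in 1 GOF library. PTPRC, CD3E, ALB, APOA2, CDH5 and INS, markers of blood, liver, endothelium and pancreas, were closed in all 8, while MYOD1, a marker of muscle, was open in all 8.

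The 227 promoters included very CpG-rich and nearly CpG-free sequence. To show this range, the 150 bases just upstream of the RefSeq start are printed for 6 genes, from 18 in which this stretch lay inside both WT peaks, held no annotated exon and matched hg38 letter for letter. They are the 3 with the most and the 3 with the fewest CpG dinucleotides. Sequences run 5′ to 3′ on the strand of the gene, from RefSeq GRCh38.p14, and capitals mark each CpG. GPR12, an orphan G protein-coupled receptor, lies at chr13:26760787-26760936 on the minus strand with 32 CpGs. FOXK1, a forkhead transcription factor, lies at chr7:4682145-4682294 on the plus strand with 29, and RBPMS2, an RNA-binding protein, at chr15:64775590-64775739 on the minus strand with 28. MAT1A, the liver enzyme that makes S-adenosylmethionine, lies at chr10:80289659-80289808 on the minus strand with 2. SPATA12, a testis gene, lies at chr3:57060514-57060663 on the plus strand with 1, and LRRC52, an auxiliary subunit of potassium channels, at chr1:165543850-165543999 on the plus strand with 0.
GPR12: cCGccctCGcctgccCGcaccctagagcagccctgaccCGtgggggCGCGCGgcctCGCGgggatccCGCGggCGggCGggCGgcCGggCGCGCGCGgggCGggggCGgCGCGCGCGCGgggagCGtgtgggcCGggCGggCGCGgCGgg
FOXK1: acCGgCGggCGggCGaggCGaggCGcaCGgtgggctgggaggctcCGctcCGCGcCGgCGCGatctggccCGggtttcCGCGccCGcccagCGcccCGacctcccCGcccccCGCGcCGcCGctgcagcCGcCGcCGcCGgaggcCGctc
RBPMS2: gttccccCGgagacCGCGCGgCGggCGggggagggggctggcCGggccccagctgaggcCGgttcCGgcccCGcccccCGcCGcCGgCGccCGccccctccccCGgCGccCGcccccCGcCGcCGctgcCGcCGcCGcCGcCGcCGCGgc
MAT1A: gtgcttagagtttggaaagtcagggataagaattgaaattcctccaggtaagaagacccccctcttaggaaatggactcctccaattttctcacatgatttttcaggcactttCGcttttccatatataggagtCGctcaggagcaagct
SPATA12: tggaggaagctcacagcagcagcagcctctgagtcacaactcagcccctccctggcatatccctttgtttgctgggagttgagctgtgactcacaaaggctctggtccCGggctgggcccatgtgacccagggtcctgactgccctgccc
LRRC52: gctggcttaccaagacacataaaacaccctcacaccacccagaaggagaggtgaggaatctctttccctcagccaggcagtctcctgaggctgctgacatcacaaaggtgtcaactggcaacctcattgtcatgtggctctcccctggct

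The first 3 stretches are dense in CpG along their whole length, and the last 3 have almost none. In H689A/F667I the promoter of FOXK1 was open in both libraries, those of RBPMS2, SPATA12 and LRRC52 in 1, and those of GPR12 and MAT1A in neither.

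Over all 227 genes, CpG content was summarised as the observed to expected ratio in 300 bases of hg38 around the canonical TSS, 250 before and 50 after it. The median ratio was 0.587, against 0.851 in the 13640 other genes open in both WT libraries and 0.780 over all 19111 genes. A ratio under 0.4 was found in 77 of the 227 (33.9%, 95% Wilson interval 28.1 to 40.3), against 7.90% of the others. A ratio of at least 0.6 was found in 112 (49.3%) against 86.3%. The distribution had 2 broad humps where that of the other genes had 1. Viewed from the other side, 6.67% of the WT-open promoters with a ratio under 0.4 were among the 227, 4.55% of those from 0.4 to 0.6, and 0.943% of those of at least 0.6.

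**Figure D1:**
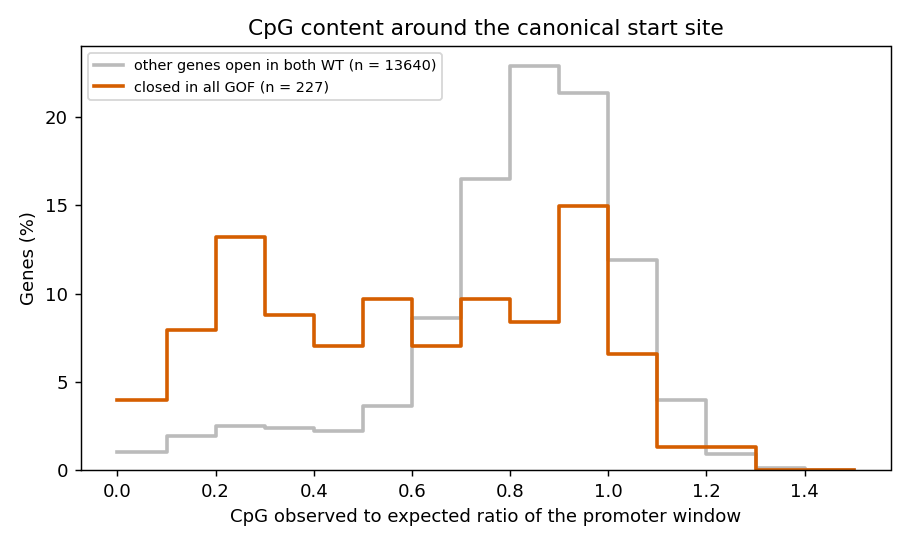
Share of genes (percent, y axis) by CpG observed to expected ratio of the 300-base window at the canonical TSS (x axis, steps of 0.1), for the 227 genes closed in all GOF libraries and the 13640 others open in both WT libraries. The 227 genes spread over low and high ratios, with 33.9% under 0.4, while the others gather around their median of 0.851.

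Short motifs were searched on both strands in the same window. CCGGAA, the core bound by ETS factors, was present in 11.0% of the 227 promoters, 28.5% of all WT-open promoters and 22.9% of all promoters. GGGCGG, the GC box bound by SP factors, was present in 59.5%, 74.0% and 61.7%, CCAAT in 22.9%, 35.8% and 35.7%, and the E-box CACGTG in 3.96%, 9.81% and 8.69%. TGANTCA, bound by AP-1, was present in 11.0%, 3.78% and 5.37%. The letters TATAAA of the TATA box were present in 6.17% of the 227, 5.37% of WT-open and 9.74% of all promoters. AGATAA, the letters of GATA factors, was present in 6.17%, 4.59% and 7.17%, and GGAATG, those of TEAD factors, in 11.0%, 9.87% and 11.3%. The ETS core, the GC box and the E-box each contain a CpG, so their shares are not independent of the CpG content described above. In the 300 bases at the centre of the WT replicate 1 peak, TGANTCA was present in 11 of the 227 (4.85%) and in 3.31% of the other genes, and among peaks with a CpG ratio under 0.4 in 10.5% against 9.88%. The higher AP-1 share of the start site windows was therefore not seen at the peak centres within that CpG class. Over all peak centres the E-box was present in 6.17% of the 227 and 6.68% of the other genes. For the GC box the shares were 70.9% against 70.7% at a CpG ratio of at least 0.4, and 16.3% against 17.0% under it. In the same classes the ETS core remained lower, at 17.0% against 24.8% and 3.49% against 5.94%. CCAAT did too, at 14.9% against 25.8% and 24.4% against 32.4%. The lower E-box and GC box shares of the start site windows were thus not seen in these comparisons.

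The WT peaks of the 227 promoters were narrower and weaker than those of the other WT-open genes, which is a description, since WT and GOF calls chose the genes. Width was 200 to 2930 bp with a median of 450 bp in WT replicate 1, and 200 to 2455 bp with a median of 434 bp in WT replicate 2, against medians of 1120 and 1107 bp in the other genes. Fold, the ratio of pileup to local background in column 7 of the lists, had medians of 3.21 and 3.20, against 4.27 and 4.30. Of the 227 genes, 212 (93.4%) had a mean WT width under the median of all WT-open genes. The lower −log10 q of the 2 WT peaks was under 2 in 109 (48.0%), against 2.23% of the other genes. In each gene the peak taken was the one with the highest fold within 1 kb of a TSS, and in 198 of the 227 (87.2%) the peaks of the 2 WT libraries overlapped, against 94.2% of the others. Spearman's rank correlation between the 2 WT libraries, across genes and as a description, was 0.437 for width and 0.670 for fold, against 0.728 and 0.886 in the others.

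**Figure D2:**
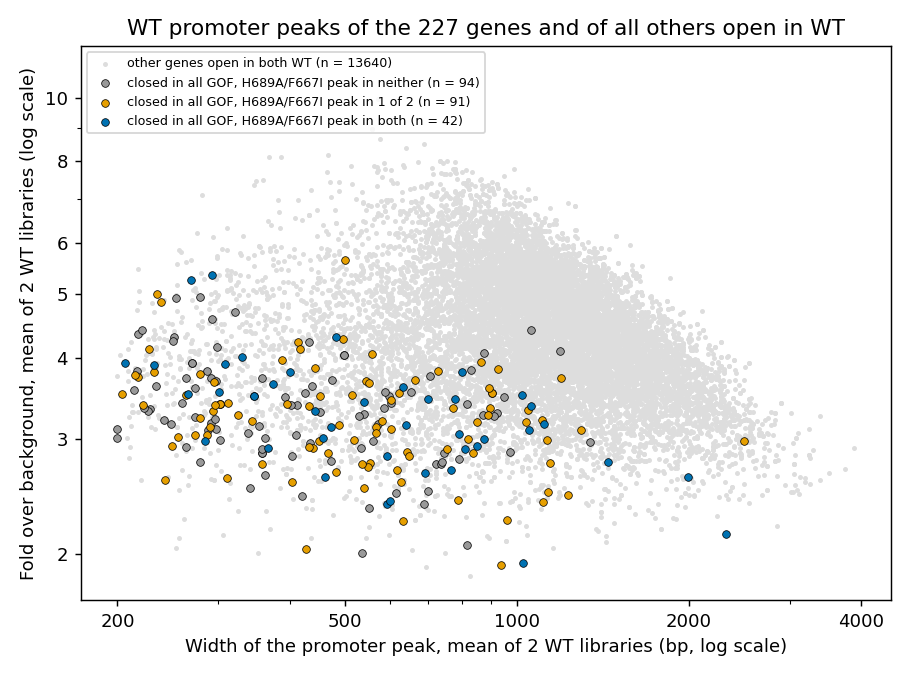
Mean width (bp, log x axis) and mean fold over background (log y axis) of the WT promoter peak, 1 point per gene. The 227 genes, coloured by the number of H689A/F667I libraries with a peak, lie to the left of and below most of the 13640 others, with medians of 472 bp and 3.27 against 1111.5 bp and 4.29.

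The peaks also lay off the start site more often. A TSS of the gene was inside the peak in both WT libraries in 97 of the 227 (42.7%, interval 36.5 to 49.2), against 88.4% of the other genes. For the canonical TSS the shares were 30.8% and 76.8%. In 72 of the 227 the canonical TSS was more than 1 kb from the peak taken in at least 1 WT library. That peak was assigned through the TSS of another annotated transcript. MLH3, a mismatch repair protein, was such a case, with a WT replicate 1 peak at chr14:75022783-75022990 and its canonical TSS at position 75051467 of the same chromosome. TRIM15, a tripartite motif protein, was another, with the peak at chr6:30170062-30170339 and the canonical TSS at position 30163546. The 227 genes rested on 221 distinct WT replicate 1 peaks, since 6 peaks each served a pair of genes, among them GABRA6 and GABRB2, KCNQ1 and TRPM5, and DEFB124 and REM1. The rule counts such a peak for both genes and cannot assign it to one of them, even where it covers a TSS of GABRB2 and not of GABRA6.

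The limit of 1 kb passed through a continuum. The nearest GOF peak lay 1014 bp from a TSS of CFAP97D1, 1017 bp from DLEC1 and 1030 bp from CACNA1D, just outside the limit, and 997 bp from CLEC11A and 990 bp from HCRT, which for that reason were not members. In 46 of the 227 (20.3%) a GOF peak lay between 1 and 2 kb from a TSS, and in 136 (59.9%) none lay within 5 kb. In 16 genes a GOF peak touched the WT peak itself and only its distance from the TSS made the promoter closed. These were AMER2, ANKUB1, CA14, CACNA1D, CFAP97D1, DLEC1, DOCK2, ENSG00000254536, GAS6, INSM1, NR5A2, PHACTR1, RGS22, SCRT1, SS18L1 and SYT8.

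The state in the H689A/F667I libraries was then read, which the choice had not used. Of the 227 promoters, 42 were open in both H689A/F667I libraries (18.5%, interval 14.0 to 24.1), against 95.5% of all WT-open genes. A further 91 (40.1%) were open in 1 of the 2 libraries, against 3.02%, and 94 (41.4%, interval 35.2 to 47.9) in neither, against 1.5%. The libraries gave like counts, 89 open in replicate 1 and 86 in replicate 2. The H689A/F667I peak was not always at the WT site, since a gene can have several TSSs: in 11 of the 89 and 7 of the 86 the peak taken overlapped neither WT peak. In 37 of the 42 genes open in both, both H689A/F667I peaks overlapped a WT peak. Read at the WT peak itself, a peak of both H689A/F667I libraries touched it in 50 genes (22.0%), of 1 library in 80 (35.2%) and of neither in 97 (42.7%), against 96.0%, 2.88% and 1.14% of the other WT-open genes. No test across samples was made, and the intervals cover counting error over genes only. The H689A/F667I lists also held fewer peaks than the WT lists, and the part of that difference in these shares was not tested.

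Median WT width was larger in genes open in more H689A/F667I libraries, while the median fold was not ordered along that state. Median mean WT width was 398 bp in the 94 genes closed in both H689A/F667I libraries, 536 bp in the 91 open in 1 and 592.5 bp in the 42 open in both, while the median fold was 3.31, 3.20 and 3.24. Within classes of WT width the 227 genes had lower shares open in both H689A/F667I libraries than other WT-open genes of that width. The classes were not matched for fold or −log10 q, and the part of these in the shares was not tested. Under 300 bp, 6 of 59 (10.2%) were open in both, against 67.2% of the others. The shares were 20.6% against 80.6% from 300 to 500 bp, 19.0% against 93.1% from 500 to 800 bp, and 22.7% against 98.8% from 800 to 1500 bp. Only 3 of the 227 were at least 1500 bp wide, of which 2 were open in both.

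The 227 genes stood at the end of a gradual series. When the WT-open genes were ordered by the number of GOF libraries with a promoter peak, from 0 to 4, the groups held 227, 393, 590, 1225 and 11432 genes. The share open in both H689A/F667I libraries was 18.5%, 50.1%, 73.9%, 94.8% and 99.8%, and median WT width was 472, 577.5, 676, 833.5 and 1170 bp in the same order. Of the 393 genes open in a single GOF library, that library was A677G replicate 2 for 231, A677G replicate 1 for 90, Y641F replicate 2 for 62 and Y641F replicate 1 for 10, the order of their peak numbers. The member count thus turned on A677G replicate 2, the GOF library with the most peaks: without it 458 genes met the rule, and their share open in both H689A/F667I libraries was 35.4%. Without WT replicate 1 or WT replicate 2, 403 and 473 genes met it. Judged by replicate 1 or by replicate 2 of H689A/F667I alone, 39.2% and 37.9% of the 227 promoters were open.

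**Figure D3:**
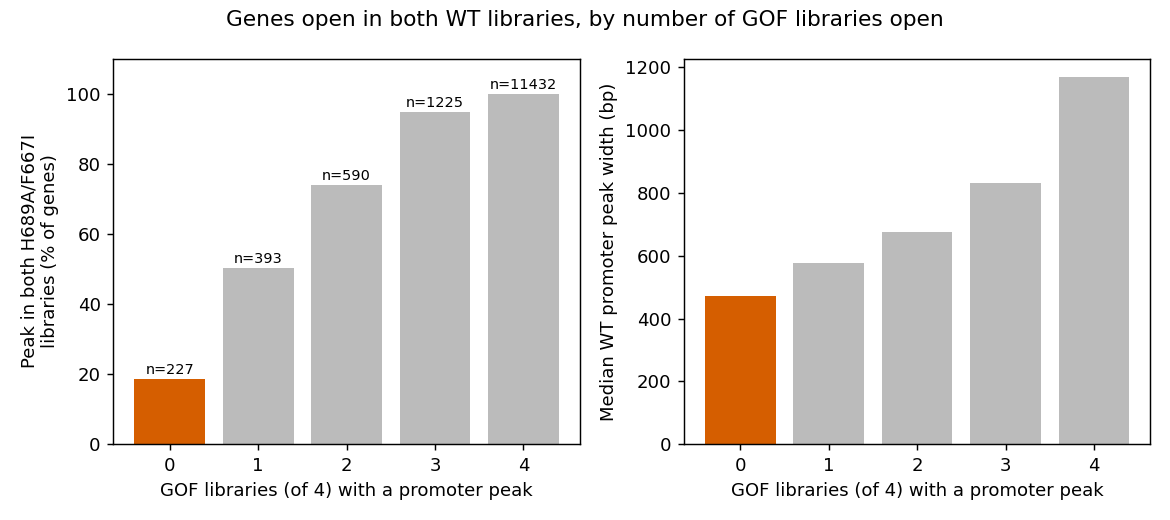
Genes open in both WT libraries, grouped by the number of GOF libraries of 4 with a promoter peak (x axis): percent open in both H689A/F667I libraries (left, y axis) and median WT peak width in bp (right, y axis). The 227 genes are the orange bars at 0, at 18.5% and 472 bp, and both measures rise step by step to 99.8% and 1170 bp at 4.

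The membership depended on the peak threshold. When every library was limited to its 26365 strongest peaks, 46 genes met the rule and 6 of them were among the 227: CFAP97D1, DRD3, MLH3, TRIM15, TRIR and ZNF502. Of the other 221, all had lost the WT call in at least 1 library. When a −log10 q of 5 or more was asked of each library, 1361 genes met the rule and 4 of the 227 were among them, CFAP97D1, DRD3, TRIM15 and ZNF502. The 227 genes are therefore a list of weak WT promoter peaks at the authors' threshold, and not a list that holds at others.

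Those 6 genes had the following peaks. DRD3, the dopamine D3 receptor, had a peak at chr3:114178825-114179100 over its canonical TSS, with a fold of 5.22 and 5.31 in the WT libraries and 4.33 and 4.53 in H689A/F667I, and its nearest GOF peak 25555 bp from a TSS. TRIM15 had 4.94 and 5.78 in WT and 5.88 and 4.31 in H689A/F667I. ZNF502, a zinc finger factor, had 5.39 and 5.92 in WT and 4.97 in H689A/F667I replicate 1 alone, at chr3:44712460-44713022 over its canonical TSS. In DRD3 both LOF libraries lay below both WT libraries, and in TRIM15 the 2 groups overlapped. MLH3 had 4.75 and 5.25 in WT and 4.22 in H689A/F667I replicate 1 alone. TRIR, an RNase that interacts with telomerase RNA, had 2.68 and 2.86 at chr19:12734553-12734849 over its canonical TSS, and CFAP97D1 had 4.08 and 4.12 at chr17:43778214-43779447, upstream of its start. As given above, a GOF peak touched the WT peak of CFAP97D1, and the nearest GOF peak lay 1014 bp from its TSS. CFAP97D1 was thus a member only through the limit of 1 kb. The promoters of TRIR and CFAP97D1 were closed in both H689A/F667I libraries.

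The 10 genes with the widest WT peaks, by the smaller of the 2 WT widths, were ANKUB1, TCTE1, SMIM47, CA14, BRD1, GPR142, CFAP97D1, AMER2, SCRT1 and NTRK3. ANKUB1 had 2544 and 2455 bp in WT and 2434 bp in H689A/F667I replicate 1, TCTE1 1770 and 2207 bp in WT and 1615 and 1088 bp in H689A/F667I. Both H689A/F667I peaks of TCTE1 were narrower than both WT peaks. SMIM47 had 2930 and 1708 bp in WT and 1537 bp in H689A/F667I replicate 1, while its peak of 509 bp in replicate 2 did not overlap the WT peaks. BRD1, a scaffold of histone acetyltransferase complexes, had 1204 and 1683 bp in WT and 1021 and 698 bp in H689A/F667I. CA14, a carbonic anhydrase, had 1388 and 1296 bp and NTRK3, the receptor for neurotrophin 3, 1095 and 1119 bp in WT. In H689A/F667I, 3 of these 10 promoters were open in both libraries, 5 in 1 and 2 in neither. The WT peak was touched by a GOF peak in 5 of the 10, and a TSS lay inside both WT peaks in 2.

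The 10 genes with the highest WT fold were ZNF502, DRD3, TRIM15, MLH3, LASP1NB, SYNPR, PCP4, CIB4, CLEC12B and ZNF880. LASP1NB had a fold of 5.46 and 4.40 in the WT libraries, PCP4, a calmodulin-binding protein of neurons, 5.02 and 4.37, ZNF880 4.97 and 4.19, and SYNPR, a synaptic vesicle protein, 4.39 and 4.42 at different TSSs, with peaks starting at positions 63351199 and 63228743 of chromosome 3. CLEC12B, a C-type lectin of immune cells, had 4.21 and 5.51. All 10 were under 500 bp wide in at least 1 WT library, so high fold and large width fell on different genes. Of the 10, 2 were open in both H689A/F667I libraries, 3 in 1 and 5 in neither, and no GOF peak touched any of their WT peaks.

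Among the 42 genes open in both H689A/F667I libraries, the 10 with the highest fold there included TRIM15, CCDC198, DRD3, SULT2A1, AFF3, MEIS3, ZNRF3, F2RL2 and PKHD1. SULT2A1, a liver and adrenal sulfotransferase, had a fold of 3.01 and 2.95 in WT and 4.07 and 3.94 in H689A/F667I. CCDC198 had 4.67 and 3.14 in WT and 4.72 and 5.13 in H689A/F667I. In both genes both H689A/F667I libraries lay above both WT libraries, which was also so for TCTE1 and in all held for 4 of the 42 (9.52%), against 17.4% of the other genes open in both. Both lay below both WT libraries in 7 of the 42 (16.7%), against 26.8%. The median ratio of H689A/F667I to WT was 0.951 for fold and 0.862 for width in the 42 genes, and 0.983 and 0.876 in the others. In the 35 of the 42 in which the WT peaks overlapped each other and each H689A/F667I peak overlapped a WT peak, the ratios were 0.963 and 0.861.

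**Figure D4:**
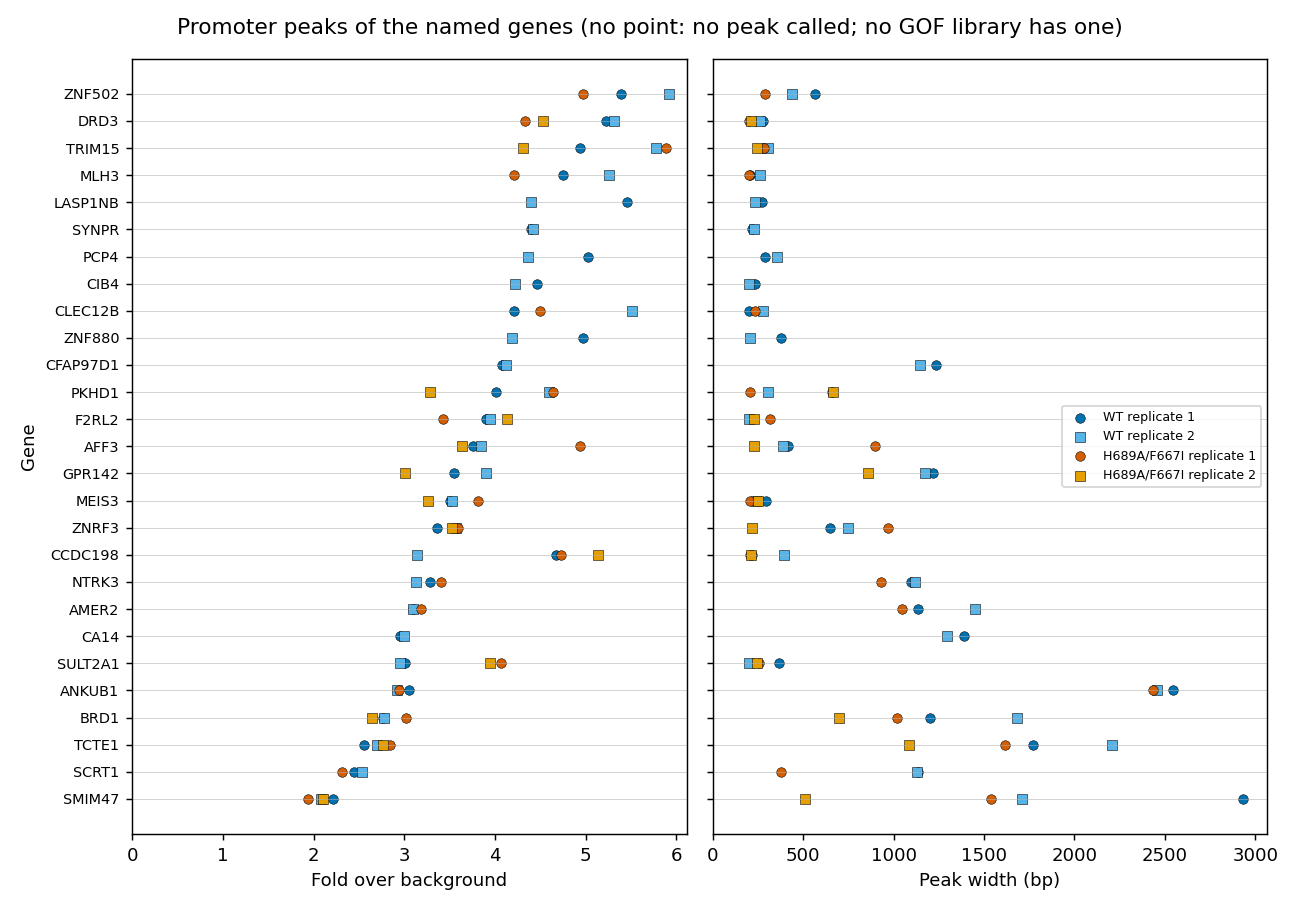
Fold over background (left, x axis) and peak width in bp (right, x axis) of the promoter peak in the 2 WT and 2 H689A/F667I libraries, 1 point per library, for 27 named genes ordered by the smaller WT fold (y axis). The genes of highest fold at the top have narrow peaks, those of greatest width lie lower, the points of SYNPR, AFF3 and SMIM47 are not all from 1 site, and a missing point means that no peak was called.

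The genes were next grouped by family, with 33 families set by gene symbol. Of the 227 genes, 111 fell in a family and 116 in none. Against the 1.64% of all WT-open genes, members made up 4 of 29 WT-open ligand-gated receptor channels (13.8%), 10 of 136 other ion channels (7.35%), 8 of 138 homeodomain and paired factors (5.80%), 4 of 75 cytokine, chemokine and interferon-induced genes (5.33%), 8 of 172 G protein-coupled receptors (4.65%) and 10 of 253 solute carriers (3.95%). Shares near that of all WT-open genes were found for 9 of 459 zinc finger ZNF and ZSCAN factors (1.96%), 4 of 197 genes of cilia and sperm (2.03%) and 17 of 899 genes named for a reading frame or protein feature (1.89%). There was no member among 262 ribosomal and translation genes, 147 respiratory chain and proteasome genes and 56 histone genes that were open in WT. No test was made, because the families were chosen with results of these data known.

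**Figure D5:**
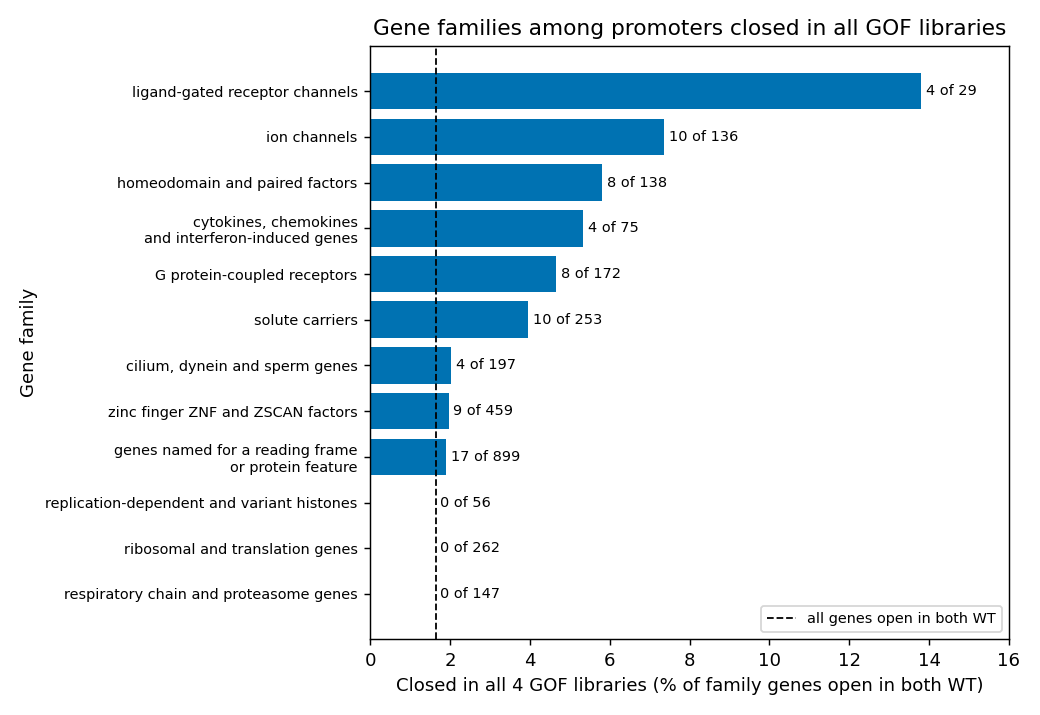
Percent of each family's genes open in both WT libraries that were closed in all 4 GOF libraries (x axis), with the count beside each bar, for the families given in the text with at least 4 such genes and for the 3 larger families with none (y axis). The dashed line is the 1.64% of all genes open in both WT libraries, ligand-gated channels are at 13.8% and the last 3 families at 0.

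The ligand-gated channels included GABRA6 and GABRB2, subunits of a chloride channel of fast inhibition in the brain. They shared 1 peak of 517 bp in WT replicate 1 and 200 bp in WT replicate 2, with a fold of 2.84 and 2.88. In both WT libraries this peak covered a TSS of GABRB2, while it lay 603 and 762 bp from a TSS of GABRA6. The canonical TSS of GABRA6 was at position 161685721, far from the peak, which started at 161547666 in WT replicate 1. The nearest GOF peak lay 1863 bp from a TSS of GABRB2. All 4 channels of this family were closed in both H689A/F667I libraries.

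The other ion channels included CACNA1D, KCNF1, KCNC2, KCNK7, ANO9, KCNQ1, TRPM5, CACNG4 and SCN1A, which carry calcium, potassium, sodium or other ions or, for CACNG4, assist such channels. KCNC2, a voltage-gated potassium channel, had a fold of 4.18 and 3.75 in WT and 3.46 in H689A/F667I replicate 1. CACNA1D, an L-type calcium channel, had 3.86 and 3.53 in WT, from 53329889 to 53330569 on chromosome 3. The peak that made it open in H689A/F667I replicate 2, with a fold of 3.07, lay at another TSS, at chr3:53784997-53785413. In H689A/F667I, 1 of the 10 promoters was open in both libraries, CACNG4, 5 in 1 and 4 in neither. KCNQ1 and TRPM5 shared their peak and were closed in both.

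The homeodomain and paired factors, which specify position and organ identity, were HOXA5, HOXA11, HOXD10, HOXB2, PAX8, MEIS3, PAX1 and PROX2. For PAX8 the peaks of the 2 WT libraries lay at different TSSs, starting at positions 113234212 and 113240577 of chromosome 2. Neither was at its canonical TSS, at position 113278921. HOXA5 had 779 and 1273 bp in WT and 589 and 1181 bp in H689A/F667I, and a fold of 2.00 and 1.88 in WT. HOXA11 had a fold of 1.91 and 1.94 and HOXD10 2.13 and 1.94, so that these 3 HOX promoters were among the lowest in fold, whose minimum over the 227 genes was 1.91 in WT replicate 1. HOXB2 had 3.02 and 2.84. The HOXD10 peak, at chr2:176108377-176108773 in WT replicate 1, was assigned through the TSS of another transcript. Its canonical TSS was at position 176116778. Of the 8 promoters, 4 were open in both H689A/F667I libraries (HOXA5, HOXB2, MEIS3 and PAX1), 2 in 1 and 2 in neither. The 3 forkhead and SOX factors, SOX8, FOXK1 and FOXE1, of 61 WT-open genes of their family, were all open in both H689A/F667I libraries. Other developmental regulators differed: NEUROD6 and OTP, neural transcription factors, were closed in both, and SHH, the Hedgehog ligand, and INSM1, a neuroendocrine factor, were open in 1. These 4 genes were picked after their values were seen.

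The G protein-coupled receptors were GPR142, HRH3, VIPR2, GPR12, NTSR1, DRD3, TAAR2 and F2RL2, receptors for amines, peptides or other ligands. GPR142 had 1216 and 1173 bp in WT and 860 bp in H689A/F667I replicate 2, and HRH3, the histamine H3 receptor, 640 and 654 bp and 923 bp in replicate 2. DRD3 and F2RL2, a thrombin receptor of the protease-activated family, were open in both H689A/F667I libraries, 4 were open in 1, and VIPR2 and GPR12 in neither. F2RL2 had a fold of 3.90 and 3.95 in WT and 3.43 and 4.14 in H689A/F667I, so that the 2 groups overlapped.

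The solute carriers were SLC19A1, SLC24A3, SLC22A8, SLC22A31, SLC4A3, SLC16A5, SLC22A3, SLC6A5, SLC17A8 and SLC13A5. SLC19A1, the reduced folate carrier, had 966 and 1265 bp in WT and 775 and 1191 bp in H689A/F667I. SLC24A3, a sodium, potassium and calcium exchanger, had 1011 and 623 bp and SLC22A8, an organic anion transporter of the kidney, 1128 and 617 bp in WT, in its case at different TSSs, and both were closed in H689A/F667I. SLC22A31, with 693 and 587 bp in WT, was open in both. In all, 4 of the 10 were open in both H689A/F667I libraries, 3 in 1 and 3 in neither.

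The zinc finger factors were ZNF426, ZNF433, ZNF502, ZNF836, ZNF492, ZNF878, ZNF83, ZNF385C and ZNF880, most of them on chromosome 19. ZNF426 had 1112 and 930 bp in WT and 562 and 594 bp in H689A/F667I, where it was the only one open in both libraries. Of the other 8, 3 were open in 1 and 5 in neither. Chromosome 19 held 24 of the 227 genes, 2.33% of its 1029 WT-open genes. The share per chromosome was highest on chromosome 21, with 5 of 126 (3.97%), and on chromosome 13, with 8 of 248 (3.23%), and chromosome 18 held none of 213.

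The genes placed by symbol alone in the cytokine, chemokine and interferon-induced family were SLFNL1, IL19, SLFN12 and IFIT2. IL19, a cytokine of the interleukin 10 family, had 791 and 1057 bp in WT and was closed in H689A/F667I, as was IFIT2, an antiviral protein, with 205 and 389 bp. SLFN12 was open in both and SLFNL1 in 1. The cilium and sperm genes were CFAP97D1, TDRD9, IFT43 and SPATA12, with none open in both. The widest of the genes named for a reading frame or protein feature were SMIM47, LRRC26, TMEM114 and C3orf49, of which SMIM47 and LRRC26 were open in both.

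A few genes used in most cell types were also among the 227. POLR2L, a subunit shared by the RNA polymerases, had 514 and 556 bp and a fold of 1.91 and 2.11 in WT, and PWP2, a ribosome biogenesis factor, 200 and 200 bp and 3.08 and 2.95. Both were closed in H689A/F667I. KMT5B, a methyltransferase for lysine 20 of histone H4, had 284 and 227 bp and 2.94 and 3.12, and was open in 1 H689A/F667I library. These 3 genes were picked after their values were seen. The nearest GOF peak lay 78479 bp from a TSS of PWP2.

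Peaks around the 227 genes were then counted. The nearest other coding gene by canonical TSS was open in all 8 libraries for 109 of the 227 (48.0%), closed in all 8 for 52 (22.9%) and itself one of the 227 for 12 (5.29%). Peaks more than 1 kb from any TSS and within 50 kb of one of the 227 genes numbered 662 and 649 in the WT libraries and 486 and 475 in the H689A/F667I libraries. They numbered 358 and 435 in the A677G libraries and 164 and 313 in the Y641F libraries. Every mutant library thus had fewer than both WT libraries. The ratio of the GOF mean to the WT mean was 0.484 near the 227 genes, 0.499 near all WT-open genes and 0.486 over all such peaks of the autosomes. For H689A/F667I the ratios were 0.733, 0.723 and 0.699. The ratio near the 227 genes was thus close to that near all WT-open genes. With the same number of peaks in every library, and the 46 genes that then met the rule, the GOF ratio was 0.922. Only 6 of those 46 were among the 227, and the ratio near all WT-open genes was not computed in that setting. The value therefore cannot be compared with those above.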

How the data were processed

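ATAC-seq peak lists of 8 HEK293T libraries, 2 per line, were grouped by their titles. Per the methods and the labels, the authors trimmed reads with Trim Galore 0.6.5, aligned them to GRCh38/hg38 with BWA 0.7.17, removed duplicates and called broad peaks per library with MACS2 2.2.7.1. The deposited lists give the fold, a ratio of pileup to local background, and −log10 p and −log10 q. The handling of transposase offsets and the read depth were not stated or are unknown, so no count model was possible and no interval covers depth. The 95% Wilson intervals cover counting error over genes only.

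Peaks were assigned to the TSS of all transcripts of protein-coding genes of GENCODE 44 on chromosomes 1 to 22, within 1 kb, with Python 3.11.15, pandas 2.3.3 and SciPy 1.17.1. All peaks ended within the hg38 chromosomes. The RefSeq promoter table matched 154 of the 227 genes (67.8%), under the 80% required for shares, so CpG ratios and motifs were taken from hg38 at the canonical TSS, and RefSeq only for printed stretches. Assignment was tested on simulated data. The members and gene lists were chosen with earlier results of these data known. Named genes were the 10 of widest WT peak, of highest WT fold and of highest H689A/F667I fold, each by the smaller of 2 libraries, and members of families with at least 4, with up to 4 examples by smaller WT width; other genes named for roles, sequence or thresholds were chosen after their values were seen. Alternatives were other peak thresholds, windows of 500 bp and 2 kb, canonical TSS only and leaving out each library. Some genes that these rules name are not reported here.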

Additional observations from a re-analysis of the deposited data

How the results depend on the processing

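The list and its WT values depended on the peak threshold. With a −log10 q of 5 or more, 1361 genes met the rule, 53.8% of them closed in both H689A/F667I libraries, with a median WT width of 1105 bp, a fold of 4.00, a TSS inside the peak in 86.3% and a CpG ratio of 0.858. With equal peak numbers 46 genes met it, with a width of 595.75 bp, a fold of 4.15, a TSS inside in 69.6%, a CpG ratio of 0.780 and a GOF to WT ratio of nearby peaks of 0.922. In both settings fewer peaks were used. The share open in both H689A/F667I libraries was 14.3% and 19.6%, against 84.7% and 93.9% of the other WT-open genes. A window of 500 bp gave a width of 499 bp, a fold of 3.26 and a TSS inside in 52.3%, one of 2 kb 447.5 bp, 3.35 and 31.2%, and canonical TSS only 515 bp, 3.19 and a CpG ratio of 0.714. Of 40 such values 19 stayed within a limit that differed by measure. It was a factor of 1.5 for the gene count, the Wilson interval for shares and an interval over genes for the CpG ratio. For width and fold it was the standard deviation of the 2 WT library medians. For the nearby peaks it was the standard deviation over the GOF libraries.

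Leaving out each library in turn gave 227 to 473 genes, 12.7% to 39.2% open and 28.8% to 62.1% closed in both H689A/F667I libraries (or in the 1 that was kept), widths of 406 to 518 bp, folds of 3.12 to 3.34, a TSS inside in 42.2% to 50.2% and CpG ratios of 0.443 to 0.689. The following were chosen after seeing the data. Genes with no GOF peak within 5 kb numbered 136 (451.75 bp, fold 3.39, TSS inside in 49.3%). Those with no GOF peak touching the WT peak had a width of 443.5 bp. Those with a TSS inside both WT peaks numbered 97 (452.5 bp, 3.34, 100%), and those with both WT −log10 q of at least 2 numbered 118 (438 bp, 3.52). The share open in both H689A/F667I libraries moved by less than its interval in each of these 4.

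No paired analysis was possible because the results come from no test, and replicate numbers mark no shared batch in the labels. Depth is unknown, so signal under the threshold cannot be seen.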
